A study of Mus musculus with 5 samples.

Results

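The genes that write and erase N6-methyladenosine (m6A) on mRNA were followed by RNA sequencing in primary microglia, the macrophages that reside in brain tissue, of the mouse. The set was chosen by gene symbol and holds 10 genes, 8 for the methyltransferase machinery (Mettl3, Mettl14, Mettl16, Wtap, Rbm15, Rbm15b, Zc3h13 and Cbll1) and 2 for the demethylases (Fto and Alkbh5), out of 21983 genes in the deposited count table. All 10 were found and all 10 passed the filter on low counts. In the libraries labelled knockout (2 libraries), the genotype combines a tamoxifen-inducible Cre recombinase at the Cx3cr1 locus with floxed Ythdf2 alleles. In the controls (3 libraries), the floxed Ythdf2 alleles are present without the Cre. The sources used here do not give age, sex, treatment or the number of animals behind a library. Each p-value therefore measures only the spread between these libraries, which may be technical.

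m6A is placed on mRNA in the nucleus by a complex whose catalytic core is the METTL3-METTL14 heterodimer, held and directed by WTAP and further adaptor proteins. A separate enzyme, METTL16, methylates a small number of structured RNAs. FTO and ALKBH5 are iron- and 2-oxoglutarate-dependent dioxygenases that remove methyl groups from RNA, and readers such as YTHDF2 bind the mark and send the mRNA to decay. In these libraries the reader is the targeted gene, and the set asks whether the genes on either side of it differed in mRNA level.

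None of the 10 genes differed detectably between the groups. The edgeR quasi-likelihood test, adjusted over the 12543 genes tested, called 0 of the 10, against 0 of all genes (0%). At an unadjusted p under 0.05 it found 0 of the 10, against 6.68% of all genes (3.99% higher and 2.69% lower in the knockout-labelled libraries), and limma-voom likewise called 0 of the 10 and 0 of all genes. DESeq2 also called 0 of the 10, against 1.68% of the 13811 genes it adjusted. In each of the 10 genes the values of the libraries labelled knockout overlapped those of the controls. Over all genes, the groups did not overlap in 20.3%, 9.85% lying higher and 10.4% lower. In a set of 10, a count of 0 does not set the genes apart from that share. The log2 fold change was positive in 6 genes and negative in 4, with a median of 0.08, beside a median of 0.01 over all genes. The median of its absolute size was 0.17, beside 0.28 over all genes.

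The libraries held 15743468 and 19577217 counts for those labelled knockout and 13947500 to 15744558 for the controls. Ythdf2 itself stood at 103 and 127 CPM (counts scaled to library size with TMM factors) in the knockout-labelled libraries, against 57.0, 69.2 and 68.7 CPM in the controls, with a log2 fold change of 0.83 (SE 0.207; edgeR adjusted p = 0.431). Reads from exons that Cre leaves in place enter this count, which is therefore no check of the deletion. With the targeted gene higher rather than lower, the 2 libraries are called labelled knockout throughout. Of 12 microglia markers 11 had counts, with sums of 4019 and 6730 CPM in the knockout-labelled libraries against 7653 to 8030 CPM in the controls, and Trem2 was listed at 0 in every library. These markers include Cx3cr1, the locus that carries the Cre in the knockout-labelled libraries only. Cx3cr1 was at 337 and 97.6 CPM there, against 681, 992 and 680 CPM in the controls (edgeR adjusted p = 0.575). Its part in the gap between the sums was not tested. Markers of choroid plexus epithelium (6) summed to 157 and 220.3 CPM in the knockout-labelled libraries against 7.47 to 26.5 CPM in the controls. Those of fibroblasts and mural cells (7) summed to 15.9 and 6.10 CPM against 31.2 to 104 CPM, and those of astrocytes (6) to 22.8 and 22.5 CPM against 23.4 to 47.6 CPM. These 3 lists, like the microglia list, separated the groups, the astrocyte list only narrowly. Among single genes, 20.3% of all those tested separated the groups as well. Markers of border-associated macrophages (6) summed to 563 and 2021 CPM against 494 to 1353 CPM, of oligodendrocytes (4) to 10986 and 4173 CPM against 1035 to 9741 CPM, and of cycling cells (6) to 1264 and 265 CPM against 90.2 to 299 CPM. Those of monocytes (8, Chil3 at 0), endothelial cells (5, Cldn5 at 0) and neurons (5) summed to at most 135 CPM in any library, and those of neutrophils (5; S100a9, Retnlg and Ly6g at 0) to at most 4.59 CPM; these 4 lists overlapped between groups. The part of these other cells in the values below was not tested, and in whole-population RNA fewer cells of a type cannot be told apart from less RNA per cell.

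The promoters of 9 of the 10 genes were found in the RefSeq promoter table (GRCm38.p6), as windows of 300 bases from 250 before to 50 after each annotated start. They are shown here for the 3 genes whose levels spread most across the 5 libraries, Mettl3, Mettl16 and Alkbh5, as the 250 bases before the start, with matches to the searched motifs in capitals. Mettl3 is at chr14:52305125-52305374 on the minus strand, Mettl16 at chr11:74770613-74770862 and Alkbh5 at chr11:60537433-60537682, both on the plus strand. For Alkbh5 the RefSeq start lies inside the longer GENCODE gene given below.
Mettl3: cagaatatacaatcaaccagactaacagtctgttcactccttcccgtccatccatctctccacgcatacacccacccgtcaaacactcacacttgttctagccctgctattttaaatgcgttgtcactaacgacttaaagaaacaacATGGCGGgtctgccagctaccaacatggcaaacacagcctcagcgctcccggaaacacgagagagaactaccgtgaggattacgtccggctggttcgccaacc
Mettl16: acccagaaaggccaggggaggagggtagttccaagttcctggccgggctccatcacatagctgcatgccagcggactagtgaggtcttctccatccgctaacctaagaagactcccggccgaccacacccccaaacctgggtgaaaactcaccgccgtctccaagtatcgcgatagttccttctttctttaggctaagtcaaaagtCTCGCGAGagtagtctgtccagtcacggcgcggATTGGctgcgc
Alkbh5: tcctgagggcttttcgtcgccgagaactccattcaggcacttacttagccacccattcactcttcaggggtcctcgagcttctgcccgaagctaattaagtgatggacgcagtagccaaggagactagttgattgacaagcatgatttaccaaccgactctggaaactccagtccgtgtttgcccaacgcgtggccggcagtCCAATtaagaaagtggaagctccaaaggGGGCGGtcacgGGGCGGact

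The 3 promoters were alike in lacking a TATA box and in holding more CG dinucleotides than the median window. Their windows had 17 (Mettl3), 20 (Mettl16) and 18 (Alkbh5) CG, the lowest counts of the set. Over the 12 windows of the 9 genes (Wtap has 3 overlapping starts and Zc3h13 has 2) the count of CG was 17 to 48 per 300 bases, with a median of 24, beside a median of 7 over all 32851 windows, of which 31.4% had 17 or more. TATAAA was in the windows of 0 of the 9 genes and in 13.6% of all windows, counting both strands. The GC box GGGCGG, which SP and KLF factors bind, was in the windows of 6 genes (35.7% of all windows), and the CCAAT box in those of 4, namely Mettl16, Wtap, Rbm15 and Alkbh5 (37.4%). CCGGAAG, the core of ETS sites, was in the windows of Mettl3, Zc3h13 and Cbll1 (8.86%), and ATGGCGG, part of YY1 sites, in those of Mettl3, Mettl16 and Rbm15b (4.05%). The ETS letters of Mettl3 and the ATGGCGG of Mettl16 fall after the start and are not printed. The palindrome CTCGCGAG was in the windows of Mettl16 and Rbm15 (0.919% of all windows), CACGTG in that of Rbm15b alone (7.15%), and TGACGTCA in none of the 9 genes (1.79%). A match is a description of the letters and not a site in use.

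Mettl3, which encodes the catalytic methyltransferase, had the widest spread of the set. It stood at 6.72 and 14.8 CPM in the knockout-labelled libraries, against 20.2, 12.98 and 15.3 CPM in the controls. The low value belongs to the library labelled knockout 1, while the other library labelled knockout lay inside the control range. Group means were 10.8 ± 5.71 CPM (SD, n = 2) in the knockout-labelled libraries and 16.2 ± 3.67 CPM (SD, n = 3) in the controls. The log2 fold change was -0.58 (SE 0.428, 95% interval -1.64 to 0.47; edgeR adjusted p = 0.911), so neither a loss of more than a factor of 2 nor a modest gain lies outside the interval. Without the library labelled knockout 1 the log2 fold change was -0.15, and without the library labelled knockout 2 it was -1.26, with an edgeR adjusted p that stayed above the threshold in each case. The 113 reads of the library labelled knockout 1 have an exact Poisson interval of 5.54 to 8.08 CPM, and the 205 reads of control 2, the lowest control, one of 11.3 to 14.9 CPM; these intervals cover counting error only. On the minus strand of chromosome 14, Mettl3 spans 52294841 to 52305128 (positions here and below are from GENCODE M21 on GRCm38). At the far end from its promoter, 933 bases (18.4%) of its exons overlap Tox4, a gene on the other strand, whose reads cannot be told apart there without strand. Tox4 was at 148 and 113 CPM in the knockout-labelled libraries against 119, 154 and 133 CPM in the controls, overlapping between groups.

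Mettl14, the partner that holds the substrate RNA without being catalytic itself, was among the steadiest genes. It was at 19.6 and 15.9 CPM in the knockout-labelled libraries, against 16.9, 17.6 and 19.9 CPM in the controls, so the highest library was 1.25 times the lowest. The 2 groups lay on top of each other, with a log2 fold change of -0.03 (SE 0.251, 95% interval -0.65 to 0.59). Without the library labelled knockout 2 it was 0.11, and without control 3 it was 0.05. Mettl14 lies on chromosome 3 at 123368297 to 123386108 (minus strand), and no exon of another gene overlaps its exons.

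Since the METTL3 and METTL14 proteins work as a dimer, the ratio of the 2 mRNAs per kilobase of exon was taken in each library. It was 0.50 and 1.36 in the knockout-labelled libraries, against 1.74, 1.08 and 1.12 in the controls. The library labelled knockout 1 was the only one of the 5 with less Mettl3 than Mettl14 on this scale. The mean log2 ratio was -0.28 ± 1.02 (SD, n = 2) in the knockout-labelled libraries and 0.36 ± 0.38 (SD, n = 3) in the controls, a difference of -0.64 (two-sided exact permutation test, p = 0.4, where 2 against 3 libraries cannot go below 0.1). Without the library labelled knockout 1 the difference was 0.08.

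**Figure D1:**
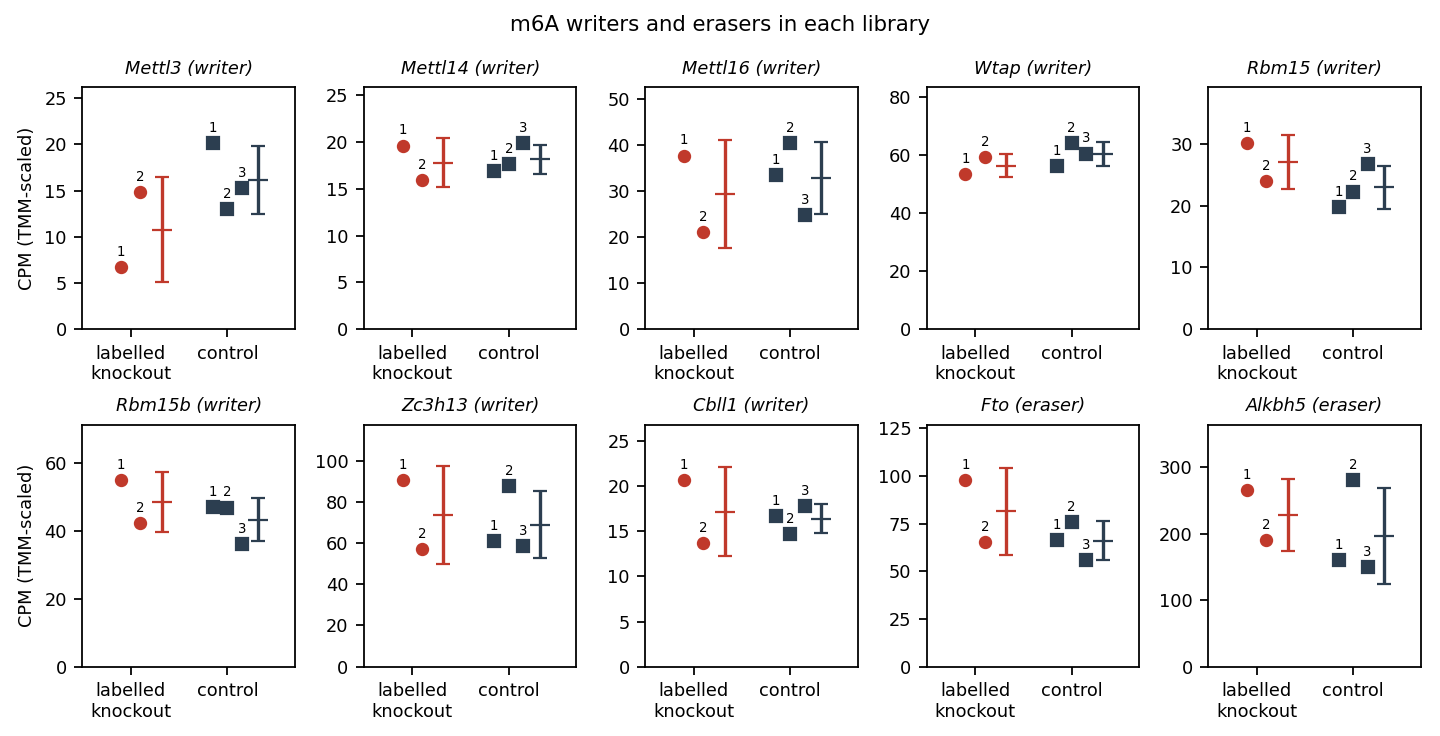
Level of each gene in each library, in TMM-scaled CPM, on axes that start at 0. Red circles are the 2 libraries labelled knockout and dark squares the 3 controls, numbered by library, with the mean and SD beside them; in each panel the groups overlap, and Mettl3 in the library labelled knockout 1, at 6.72 CPM, lies below all 3 controls while the other library labelled knockout, at 14.8 CPM, lies among them.

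Mettl16, which in human cells methylates U6 small nuclear RNA and hairpins in MAT2A mRNA, had the next widest spread, 1.92 times from the lowest to the highest library, followed by Alkbh5 (1.87) and Fto (1.75). It was at 37.8 and 21.1 CPM in the knockout-labelled libraries, against 33.5, 40.5 and 24.9 CPM in the controls. The library labelled knockout 2 was the lowest of the 5 and the other lay inside the control range, and the log2 fold change was -0.17 (SE 0.350, 95% interval -1.03 to 0.70). Without the library labelled knockout 2 it was 0.19, and without control 2 it was 0.01. It lies on chromosome 11 at 74770830 to 74828525 (plus strand). Mat2a, which encodes the main synthase of the methyl donor S-adenosylmethionine, was listed at 0 counts in all 5 libraries, so the mRNA best known as a METTL16 target could not be read here. The reason for the 0 counts of Mat2a was not tested. Of its exons 11.3% overlap the antisense gene Particl.

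Wtap, the scaffold that anchors the METTL3-METTL14 core in nuclear speckles, showed the least spread. It was at 53.6 and 59.4 CPM in the knockout-labelled libraries, against 56.2, 64.3 and 60.6 CPM in the controls, and the highest library was 1.20 times the lowest. Its interval was the narrowest of the 10, from -0.56 to 0.37 around a log2 fold change of -0.10 (SE 0.190). Wtap lies on chromosome 17 at 12966796 to 12994169 (minus strand), with no overlapping exon.

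Rbm15 and Rbm15b encode paralogous RNA-binding adaptors that bring the complex to its targets, including Xist RNA. Rbm15 was at 30.2 and 24.0 CPM in the knockout-labelled libraries, against 19.9, 22.3 and 26.7 CPM in the controls. Rbm15b was at 54.9 and 42.3 CPM in the knockout-labelled libraries, against 47.1, 46.9 and 36.1 CPM in the controls. In both genes the library labelled knockout 1 was the highest of the 5 and the other library labelled knockout lay within the control range. The log2 fold changes were 0.24 (SE 0.252) for Rbm15 and 0.16 (SE 0.236) for Rbm15b; without the library labelled knockout 1 they were 0.03 and -0.07. The 2 genes are on chromosome 3 at 107325421 to 107333673 and on chromosome 9 at 106880918 to 106887428, both on the minus strand, and 1.15% of the exon bases of Rbm15b overlap Dcaf1 on the other strand. Per kilobase of exon, Rbm15 was at 0.48 and 0.50 of the Rbm15b level in the knockout-labelled libraries, against 0.37, 0.42 and 0.65 in the controls. This level depends on the length used, since per kilobase of coding transcript the means were 5.67 CPM for Rbm15 and 6.98 CPM for Rbm15b.

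Zc3h13, a zinc finger protein that keeps the complex in the nucleus, was at 90.4 and 56.9 CPM in the knockout-labelled libraries, against 60.9, 87.5 and 58.6 CPM in the controls. The library labelled knockout 1 and control 2 formed a high pair and the other 3 libraries lay close together, so the labels did not order this gene (log2 fold change 0.09, SE 0.302). Cbll1, whose product HAKAI is an E3 ubiquitin ligase and a stable part of the complex, was at 20.6 and 13.7 CPM in the knockout-labelled libraries, against 16.6, 14.7 and 17.8 CPM in the controls. The libraries labelled knockout were its highest and its lowest values (log2 fold change 0.07, SE 0.290). Without the library labelled knockout 1 the log2 fold changes were -0.31 for Zc3h13 and -0.28 for Cbll1. Zc3h13 lies on chromosome 14 at 75284373 to 75344426 (plus strand) and Cbll1 on chromosome 12 at 31484829 to 31499616 (minus strand). Of the exon bases of Cbll1, 17.6% overlap Gm29542 on the other strand.

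The demethylase Fto, which also acts on N6,2'-O-dimethyladenosine next to the mRNA cap, was at 97.7 and 65.1 CPM in the knockout-labelled libraries, against 66.3, 76.1 and 55.9 CPM in the controls. The library labelled knockout 1 was above every control and the other was inside their range. The log2 fold change of 0.30 (SE 0.260, 95% interval -0.34 to 0.94; edgeR adjusted p = 0.924) was the highest of the set. It was -0.05 without the library labelled knockout 1. Fto lies on chromosome 8 at 91313525 to 91668439 (plus strand), and 3.44% of its exon bases overlap genes on the other strand.

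Alkbh5, the nuclear m6A demethylase, was the most abundant of the 10. It was at 266 and 190.2 CPM in the knockout-labelled libraries, against 161, 280.4 and 150.0 CPM in the controls. The library labelled knockout 1 and control 2 were again the 2 high libraries, and the groups overlapped, with a log2 fold change of 0.21 (SE 0.349, 95% interval -0.65 to 1.07). It was -0.08 without the library labelled knockout 1. Alkbh5 lies on chromosome 11 at 60536381 to 60558512 (plus strand), with no overlapping exon. The ratio of Fto to Alkbh5 per kilobase of exon was 0.17 and 0.16 in the knockout-labelled libraries, against 0.19, 0.12 and 0.17 in the controls, with both knockout-labelled values inside the control range. The size of this ratio depends on the length used. Per kilobase of coding transcript, the means over the libraries were 18.9 CPM for Fto and 36.6 CPM for Alkbh5.

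**Figure D2:**
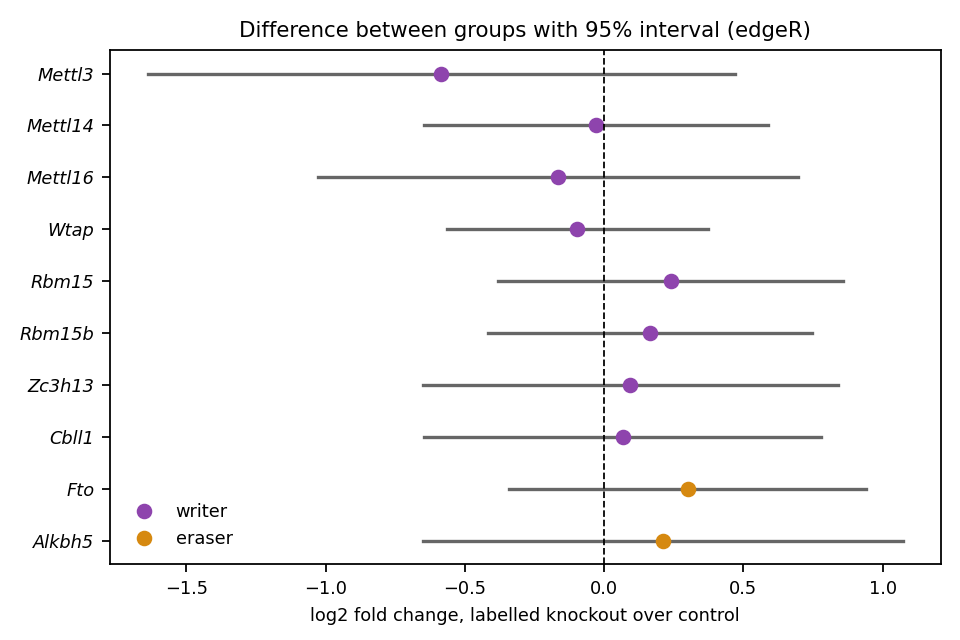
Log2 fold change of each gene, libraries labelled knockout over controls, from the edgeR fit across all genes. Points are estimates and lines their 95% intervals, purple for writers and orange for erasers; each of the 10 intervals includes 0, from the narrow one of Wtap (-0.56 to 0.37) to the wide one of Mettl3 (-1.64 to 0.47).

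The summed level of the 8 writers per kilobase of exon was 47.3 and 38.3 in the knockout-labelled libraries, against 41.4, 46.0 and 40.1 in the controls. That of the 2 erasers was 51.9 and 36.8 in the knockout-labelled libraries, against 32.0, 52.7 and 29.3 in the controls. Both sums were high in the library labelled knockout 1 and control 2, and the eraser sum moved over a wider range than the writer sum. Most of the eraser sum was Alkbh5 alone, at 44.4 and 31.8 in the knockout-labelled libraries, against 26.9, 46.8 and 25.1 in the controls. Its wider range is therefore mainly that of 1 gene.

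Per length, the genes fell into a steep order. Alkbh5 averaged 35.0 CPM per kilobase of exon over the 5 libraries, and its lowest library (25.1) was above the highest library of the next gene, Zc3h13 (14.4). Zc3h13 averaged 11.3 and Wtap 9.42, and their ranges over libraries overlapped. The lowest Wtap library (8.58) was above the highest Rbm15b library (8.43). Below this the neighbours overlapped: Rbm15b averaged 6.98, Fto 5.54, Cbll1 4.17 and Rbm15 3.32 CPM per kilobase. The methyltransferase genes themselves closed the order, with means of 2.76 for Mettl3, 2.43 for Mettl14 and 2.28 for Mettl16. The order depends in part on the length used. With the median length of annotated coding transcripts in place of all exons, Alkbh5 had the highest mean (36.6 CPM per kilobase), followed by Wtap (26.1), Fto (18.9) and Zc3h13 (11.5), and Mettl3 (6.91) moved above Rbm15 (5.67) and Cbll1 (4.28). On that scale the separation of Alkbh5 was lost, since its lowest library (26.2) was below the highest Wtap library (28.6).

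**Figure D3:**
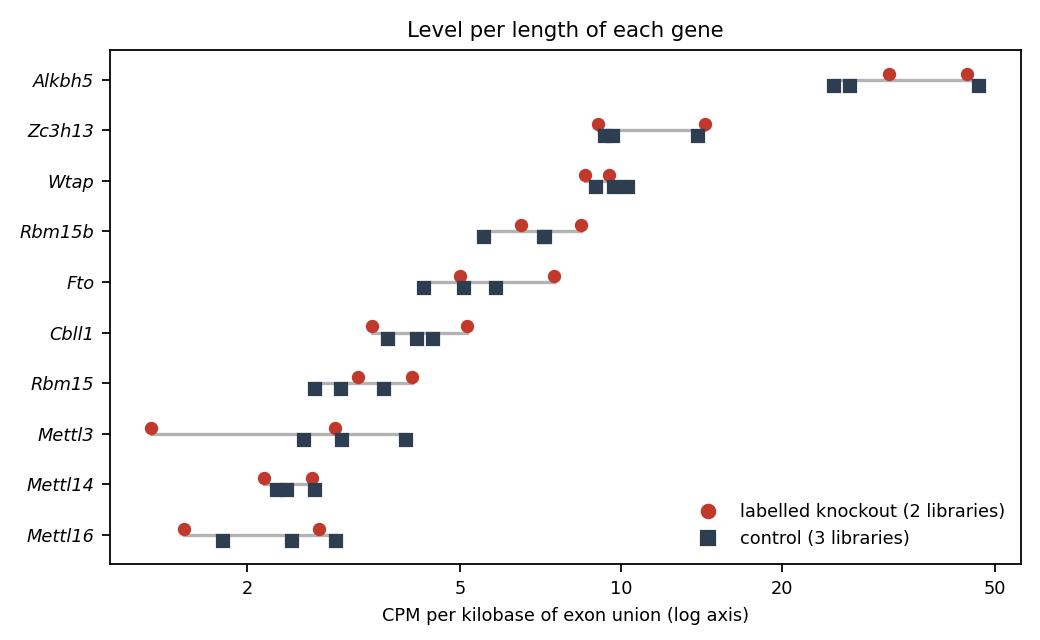
Level of each gene per kilobase of exon union, in CPM per kilobase on a log axis, ordered by the mean. Red circles are the 2 libraries labelled knockout, dark squares the 3 controls and grey lines the range; on this scale Alkbh5 stands clear of the rest, with its lowest library at 25.1 against 14.4 for the highest Zc3h13 library, whereas per kilobase of coding transcript its range meets that of Wtap.

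No single order of the libraries held for the 10 genes. The library labelled knockout 1 was the highest of the 5 in 5 genes and the lowest in 2, and the library labelled knockout 2 was the highest in none and the lowest in 4. Control 1 was the highest in 1 gene and the lowest in 1, control 2 the highest in 3 and the lowest in none, and control 3 the highest in 1 and the lowest in 3. The median deviation of the 10 genes from their own mean over the libraries was 0.31 on the log2 scale in the library labelled knockout 1 and -0.11 in the other, against -0.07, 0.08 and -0.10 in controls 1 to 3. Over all genes, the library labelled knockout 1 was the highest in 30.3% and the lowest in 33.1%, and the library labelled knockout 2 was the highest in 21.1% and the lowest in 17%. Controls 1 to 3 were the highest in 13%, 13.1% and 22.5% and the lowest in 13.9%, 12.4% and 23.6%.

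The libraries also differed by transcript length. Across all genes with an annotated coding transcript, those of 6000 bases or more deviated by a median of 0.46 (log2) in the library labelled knockout 1 and -0.21 in the other, against -0.14, 0.13 and -0.21 in controls 1 to 3. Those under 1000 bases deviated by -0.57 in the library labelled knockout 1 and 0.35 in the other, against 0.28, -0.28 and 0.28 in the controls. By these medians long genes stood high, and short genes low, in the library labelled knockout 1 and in control 2. Of the 10 genes, the shortest coding transcripts belong to Mettl3 (2025 bases) and Wtap (2251 bases), which were also the 2 genes lowest in the library labelled knockout 1. The other 8, at 3819 bases or more, were above their own mean there.

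With each library's trend on transcript length taken out, a step chosen after seeing the data, the call did not change for any of the 10 genes (smallest edgeR adjusted p among them 0.778, for Mettl16). The trend was fitted on the same 5 libraries, so genes that follow it narrow by construction. The spread from the lowest to the highest library narrowed to 1.25 times for Zc3h13, against 1.59 before. It went to 1.58 times for Alkbh5, against 1.87, and to 1.51 times for Mettl16, against 1.92. Wtap (1.20 times before and after) and Mettl14 (1.25 before, 1.24 after) hardly changed. Mettl3 kept most of its spread, 2.54 times against 3.0, with 7.46 and 14.1 length-corrected CPM in the knockout-labelled libraries against 19.0, 13.2 and 14.3 in the controls, and a log2 fold change of -0.52. Mettl16 was the only gene whose groups no longer overlapped, at 27.2 and 24.3 length-corrected CPM in the knockout-labelled libraries against 36.2, 36.9 and 28.1 in the controls (log2 fold change -0.39). That is 1 of the 10 genes, against 22.4% of all genes without overlap after the same correction (11.3% higher, 11.1% lower), so the count does not set the 10 genes apart from the rest. Zc3h13 changed sign, to a log2 fold change of -0.06. The part of transcript length, or of any other difference between the libraries, in these values was not tested.

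**Figure D4:**
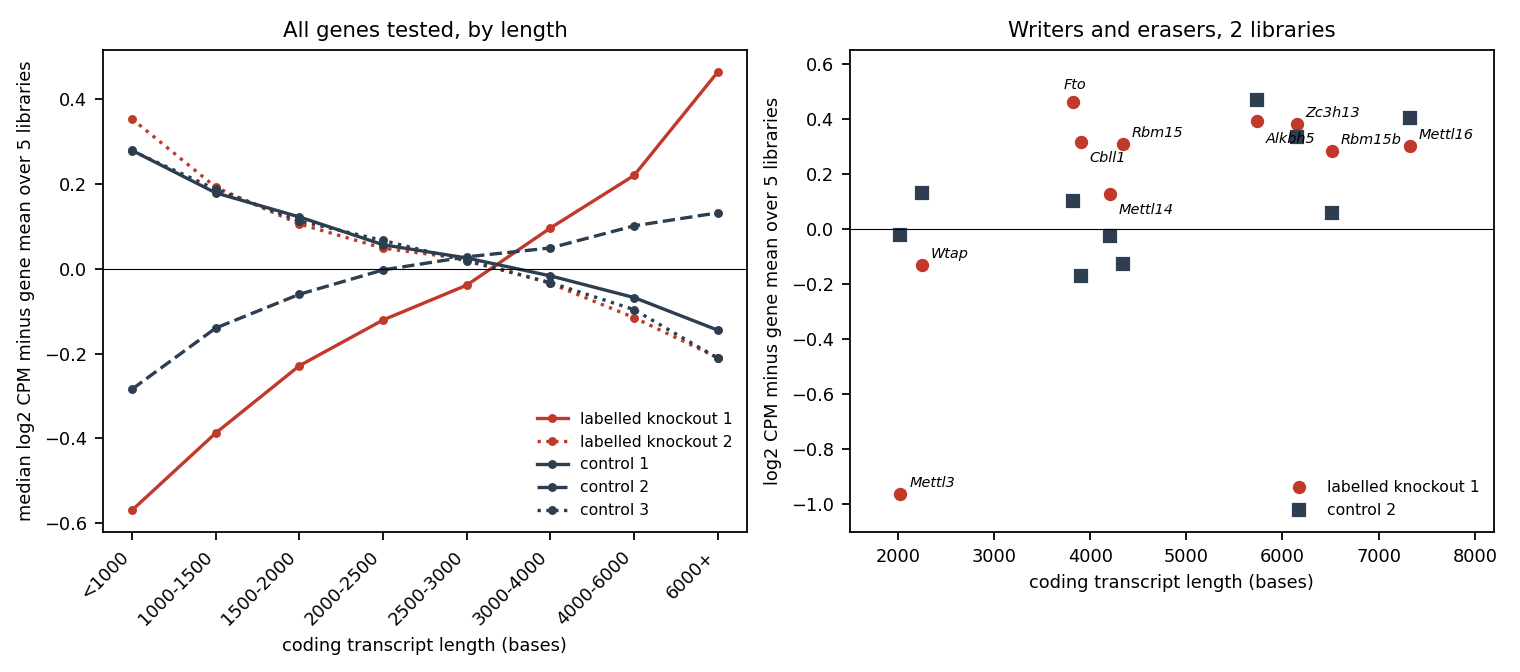
Left, median log2 CPM of all tested genes with an annotated coding transcript, minus each gene's mean over the 5 libraries, by transcript length in bases; red lines are the libraries labelled knockout (solid for 1, dotted for 2) and dark lines the controls. Right, the same deviation for the 10 writers and erasers in the library labelled knockout 1 (red circles, named) and control 2 (dark squares); the library labelled knockout 1 climbs from -0.57 for the shortest genes to 0.46 for the longest, and Mettl3 lies lowest in it.

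Other genes of the pathway were read from 4 lists. In the remaining RNA adenosine methyltransferases and writer partners, 0 of 6 tested genes passed edgeR in either direction. The median log2 fold change was -0.04, beside 0.01 over all genes. The groups did not overlap in 1 gene higher and 2 lower, against 9.85% higher and 10.4% lower over all genes. The list was not tested as a set. Virma, the large scaffold that steers methylation toward 3' ends, was at 119 and 89.6 CPM in the knockout-labelled libraries, against 67.0, 88.0 and 81.4 CPM in the controls, without overlap (log2 fold change 0.40, SE 0.230; edgeR adjusted p = 0.874). After the length correction its groups overlapped. Mettl5 and its stabilising partner Trmt112, which methylate 18S ribosomal RNA, were at 1.19 and 2.59 CPM and at 0.54 and 1.35 CPM in the knockout-labelled libraries, below their controls of 2.89 to 5.42 CPM and 1.52 to 2.39 CPM (edgeR adjusted p = 0.871 and 0.874). Both genes stayed below their controls after the length correction. Of the exon bases of Trmt112, 39.1% overlap Prdx5 and Esrra on the other strand. Pcif1, which methylates the adenosine next to the cap, had a log2 fold change of 0.06.

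Of 13 m6A readers tested, 0 passed edgeR, 6 were positive and 7 negative, and the median log2 fold change was -0.19. The insulin-like growth factor 2 mRNA-binding proteins went apart: Igf2bp3 had a log2 fold change of 0.62 (SE 0.218; edgeR adjusted p = 0.669) and Igf2bp2 one of -1.49 (SE 0.534; edgeR adjusted p = 0.679), each without overlap between groups. Of the exon bases of Igf2bp3, 18.7% overlap Malsu1 on the other strand. Ythdc1, the nuclear reader, was at 31.9 and 56.7 CPM in the knockout-labelled libraries, against 57.9 to 65.0 CPM in the controls (edgeR adjusted p = 0.876). After the length correction the groups of Ythdc1 overlapped, while those of Igf2bp2 and Igf2bp3 stayed apart. In the S-adenosylmethionine cycle, which supplies the methyl donor and clears its product, 0 of 8 genes passed (4 positive, 4 negative, median -0.05). The named genes were Adk, the kinase that clears adenosine (log2 fold change 0.47), Mtrr, which reactivates methionine synthase (-0.32), and Ahcyl1, a relative of S-adenosylhomocysteine hydrolase (0.21). Only Mtrr was without overlap, lying lower. After the length correction Mtrr still lay lower, and Adk lay higher without overlap, against 11.3% higher and 11.1% lower over all genes.

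The other AlkB family dioxygenases, relatives of Alkbh5 that act on DNA, tRNA or protein, had 0 of 7 called, with 6 negative and a median log2 fold change of -0.44. Of these, 6 were lowest in the library labelled knockout 1, namely all but Alkbh8, against 33.1% of all genes. The median coding transcript length over the list was 1311.5 bases, and its part in these values was not tested. Alkbh7, a mitochondrial member, was at 4.34 and 8.64 CPM in the knockout-labelled libraries, against 9.51 to 10.7 CPM in the controls (edgeR adjusted p = 0.884). It was the 1 gene of the 7 without overlap between groups, against 20.3% of all genes. Alkbh1 and Alkbh2 had log2 fold changes of -0.57 and -0.90. After the length correction the median of the list was -0.33, with 1 of the 7 positive. Alkbh6 and Alkbh7 then lay lower without overlap, against 11.1% of all genes. The longest of their transcripts has a median of 3093.5 bases, beside 5730 bases for Alkbh5. Whether Alkbh5 differs from this list was not tested.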

How the data were processed

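Primary microglia of mouse brain gave 5 libraries (2 labelled knockout, 3 controls), made with Trizol and a NEBNext Ultra kit per the labels' protocols. The authors deposited whole-number read counts per gene symbol, and the values look unnormalized. Per the submitters' processing notes FastQC, STAR, HTSeq and mm10 were used; the sources used here do not give versions, annotation or strand setting. The table has 0 rows that name no gene. Groups and numbers came from the titles; the third control's title carries 2 different numbers, and its library number was used.

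Groups were compared with the two-sided quasi-likelihood test of edgeR 4.0.16 in R 4.3.3 (filterByExpr, TMM, robust estimation; 3 residual degrees of freedom). P-values were adjusted by Benjamini-Hochberg over 12543 genes and called under 0.05. SE is the absolute log2 fold change over the square root of F, and 95% intervals use the t quantile at the total degrees of freedom. Poisson intervals cover counting error only. CPM uses TMM-scaled totals, and log2 deviations a prior count of 2. Of the table's symbols 99.7% matched GENCODE M21 (GRCm38), which gave positions, exon overlaps and lengths. The length correction used each library's loess trend (span 0.3) on the median coding transcript length as an offset. Steps were tested on simulated data.

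Alternatives were other scalings, filters, DESeq2 1.42.0, limma-voom 3.58.1, a replicate block, the legacy and non-robust versions of the edgeR fit, omission of each library, and ribosomal, mitochondrial and haemoglobin genes left out. All 10 genes are named, with Ythdf2, Cx3cr1, Virma, Mat2a and, of each other list, up to 3 tested genes with the smallest p. The genes and lists were chosen with earlier results of these data known.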

Additional observations from a re-analysis of the deposited data

How the results depend on the processing

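In the 16 other analyses and the length correction, 0 of the 10 genes passed in either direction. The log2 fold change kept its sign in every one of these settings for Mettl3, Wtap and Rbm15. With a replicate block on the library numbers, which share only a number, it turned to 0.0358 for Mettl14 and -0.0248 for Zc3h13, and the count of calls over all genes was 4, against 0 in the edgeR fit without the block and 232 in DESeq2. With the length trend removed it was -0.0605 for Zc3h13, and 1 of the 10 genes, Mettl16, lay lower without overlap, against 11.1% of all genes; with library totals only, 1 gene, Wtap, did, against 11%.

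With each library left out in turn, the log2 fold change ranged from -0.22 to 0.1132 for Mettl14, -0.68 to 0.194 for Mettl16, -0.065 to 0.34 for Rbm15b, -0.3073 to 0.39 for Zc3h13, -0.2846 to 0.33 for Cbll1, -0.0505 to 0.56 for Fto and -0.0815 to 0.55 for Alkbh5. The same omissions gave 0 to 5 of the 10 genes higher and 0 to 4 lower without overlap. With 1 library labelled knockout left, which is then assumed to vary like the controls, 4 of the 10 (without 1) and 7 of the 10 (without 2) did not overlap, against 50.5% and 71.6% of all genes; with 1 control left out, 1, 2 and 1 did not, against 26.2%, 31.9% and 32.3%. The difference in the log2 ratio of Mettl3 to Mettl14 ranged from -1.36 to 0.0815, turning only without the library labelled knockout 1. In the block check, deviations of same-numbered libraries from their group means correlated at 0.148 and -0.562. With 2 libraries labelled knockout these deviations mirror each other. Each control therefore gives the same value with either sign, and the values do not test a pairing. The 95% intervals, reaching from -1.64 (Mettl3) to 1.07 (Alkbh5), limit what these 5 libraries can show.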
